A study of Homo sapiens with 6 samples.

Results

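CD44, its ezrin, radixin and moesin linkers and a set of epithelial surface glycoproteins were followed in HCT116 cells after knockdown of Matrin3. The 8 genes, CD44, EZR, RDX, MSN, EPCAM, ALCAM, CD9 and CD151, were taken by name, through the gene IDs of the deposited tables, and they make up 8 of 58884 gene IDs. HCT116 is an established human colorectal cancer line, so every sample is a culture of the same line. There were 3 siMatrin3 libraries, from cells given a pool of siRNAs (SMARTPool) against Matrin3, and 3 siCTRL libraries, from cells given the Allstars negative control siRNA, and both groups were collected 48 h after transfection. The methods describe biological triplicates of total RNA depleted of ribosomal RNA, whereas the sample labels name a stranded mRNA kit. The knockdown rests on a single pool, so that effects of its separate siRNAs cannot be told apart.

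CD44 is the main cell surface receptor for hyaluronan, a sugar polymer of the extracellular matrix, and its pre-mRNA carries a block of variable exons that are skipped in the standard form (CD44s) and kept in different sets in the variant forms. Its cytoplasmic tail is tied to the actin cortex by ezrin (EZR), radixin (RDX) and moesin (MSN), the ERM proteins, which share a membrane-binding FERM domain and an actin-binding tail. EPCAM and ALCAM are adhesion glycoproteins used as surface markers of colorectal cancer cells. CD9 and CD151 are tetraspanins, small membrane proteins that gather integrins and other receptors into membrane domains. Matrin3 is a nuclear RNA-binding protein that acts on many pre-mRNAs as a repressor of exon inclusion, and the CD44 exon v2 was among the exons followed by PCR in the study. The paper reports that PCR matched its separate RNA-seq of poly(A) RNA, with more CD44 exon inclusion after knockdown.

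The sequences that separate the standard and the v2 form are shown because the gene tables add both forms into 1 CD44 row. The CD44 gene lies at chr11:35138882-35232402 on the plus strand (hg38). The study's forward RT-qPCR primers for the v2 form and for CD44s each span an exon junction, with the bases of the downstream exon in capitals.
CD44v2 forward primer: cctgctaccaCTTTGATGAGC
CD44s forward primer: agaatccctgctaccaGAGACCAA
Both primers start in the exon at chr11:35189835-35190065. The v2 primer continues into the exon at chr11:35196746-35196874, which is 129 bases long, and was found in 2 of the 38 CD44 transcripts of GENCODE that the tables list. The CD44s primer continues into the exon at chr11:35214852-35214914, which is 63 bases long, and was found in 3 of these transcripts.

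The ends of the introns that precede these exons are shown because the splicing machinery recognises an exon there, through a stretch of pyrimidines. The last 25 intron bases are in lower case, ending in the ag of the splice site, and the first 5 exon bases in capitals (hg38, plus strand).
CD44 v2 exon, chr11:35196721-35196750: atcaattcaatcatgattacaacagCTTTG
CD44s junction exon, chr11:35214827-35214856: tgaccttcctgattgctcattacagGAGAC
Of these 25 intron bases, 12 were pyrimidines before the v2 exon and 16 before the exon joined in CD44s. The latter exon is not particular to CD44s. It is also exon 15 of the transcript CD44-208, which holds the v2 exon as exon 6, so only the junction marks CD44s. These counts describe the reference sequence, and the gene tables hold no reads by exon or junction.

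Libraries held between 4556658 and 8400412 estimated counts, and counts are given below as CPM, which sets each count against the scaled total of its library (in units of 1000000). MATR3, the targeted gene, was at 72.4, 67.9 and 71.4 CPM in siMatrin3, against 363, 343 and 330 CPM in siCTRL. This is a log2 fold change of -2.29 ± 0.06 (SE), at an adjusted p of 7.58e-11 by edgeR. Another gene ID with the symbol MATR3 overlaps this gene and reached at most 17.4 CPM. KRT8, KRT18 and KRT19, keratins of simple epithelia, were high in all libraries. KRT8 was between 446 and 454 TPM in siMatrin3 and between 408 and 449 TPM in siCTRL, whereas KRT20 reached at most 0.95 TPM. Of 11 epithelial markers 8 passed the filter on low counts and 1, KRT19, rose (log2 fold change 0.23, adjusted p = 0.0106 by edgeR), while KRT8 (0.18, adjusted p = 0.0592) passed in the fit blocked by replicate (0.18, adjusted p = 0.00789). The other markers that passed the filter did not pass the test, with log2 fold changes between -0.15 (CLDN4) and 0.14 (CDH1). Of the intestinal genes CDX2 was at 6.0 to 11.2 TPM in siMatrin3 and 6.02 to 10.4 TPM in siCTRL, whereas VIL1 reached at most 0.34 TPM and CDX1 was at 0. Of 8 fibroblast markers COL1A2, COL3A1, PDGFRA, DCN, LUM and FAP were at 0 in every library, PDGFRB reached at most 0.63 TPM, and COL1A1 was at 6.28 to 7.03 TPM in siMatrin3 and 6.51 to 8.99 TPM in siCTRL (log2 fold change -0.01, adjusted p = 0.967). Of 8 blood cell markers CD68 alone passed the filter (up to 2.29 TPM in siMatrin3 and 1.69 TPM in siCTRL, log2 fold change 1.40, adjusted p = 0.414), and the other 7 reached at most 0.68 TPM. Over all 14334 genes tested, siMatrin3 was higher for 814 and lower for 743 (edgeR quasi-likelihood test with Benjamini-Hochberg adjustment at 0.05), which is 10.9% of the genes.

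After knockdown CD44 and EPCAM rose, and none of the 8 genes fell. All 8 passed the low count filter, and 2 of 8 passed the test on estimated counts, against 5.68% of all genes called as higher and 5.18% called as lower. These shares were not matched for level. By mean TPM the 8 genes stood between the 71.5 (ALCAM, siMatrin3) and 98.0 (EZR, siCTRL) percentiles of tested genes. The other 6 genes had log2 fold changes between -0.15 and 0.16 and did not pass. The median log2 fold change of the 8 genes was 0.10, against -0.00 over all genes. In RNA from whole cultures, a change in cells of a given kind and a change in RNA per cell cannot be told apart.

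CD44 was at 482, 555 and 563 CPM in the siMatrin3 libraries, against 374, 431 and 384 CPM in the siCTRL libraries. Every siMatrin3 library was above every siCTRL library, and the spread within each group was smaller than the gap between the means. The means were 533 ± 44.2 CPM in siMatrin3 and 396 ± 30.9 CPM in siCTRL (SD, n = 3 each), 34.6% higher in siMatrin3. A log2 fold change of 0.42 ± 0.07 was fitted (SE), with a 95% interval of 0.27 to 0.58 and an adjusted p of 0.00205 by edgeR. Within replicate numbers, the log2 difference in CPM was 0.37, 0.36 and 0.55. CD44 kept its call with each library left out, at log2 fold changes between 0.38 and 0.49. With RSEM effective lengths as an offset the log2 fold change was 0.35 and CD44 no longer passed (adjusted p = 0.0573).

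EPCAM, a homophilic adhesion protein of epithelia, was at 179, 194 and 194 CPM in siMatrin3, against 164, 162 and 139 CPM in siCTRL. The groups did not overlap, and the lowest value was that of siCTRL replicate 3. The means were 189 ± 8.78 CPM in siMatrin3 and 155 ± 13.6 CPM in siCTRL (SD, n = 3 each), and a log2 fold change of 0.28 ± 0.07 was fitted (SE, 95% interval 0.14 to 0.43, adjusted p = 0.0183 by edgeR). The call was lost without siCTRL replicate 3 (log2 fold change 0.21, adjusted p = 0.0872), without siMatrin3 replicate 2 (0.26, adjusted p = 0.0542) and without siMatrin3 replicate 3 (0.26, adjusted p = 0.0747). It was also lost with effective lengths as an offset (0.30, adjusted p = 0.105).

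**Figure D1:**
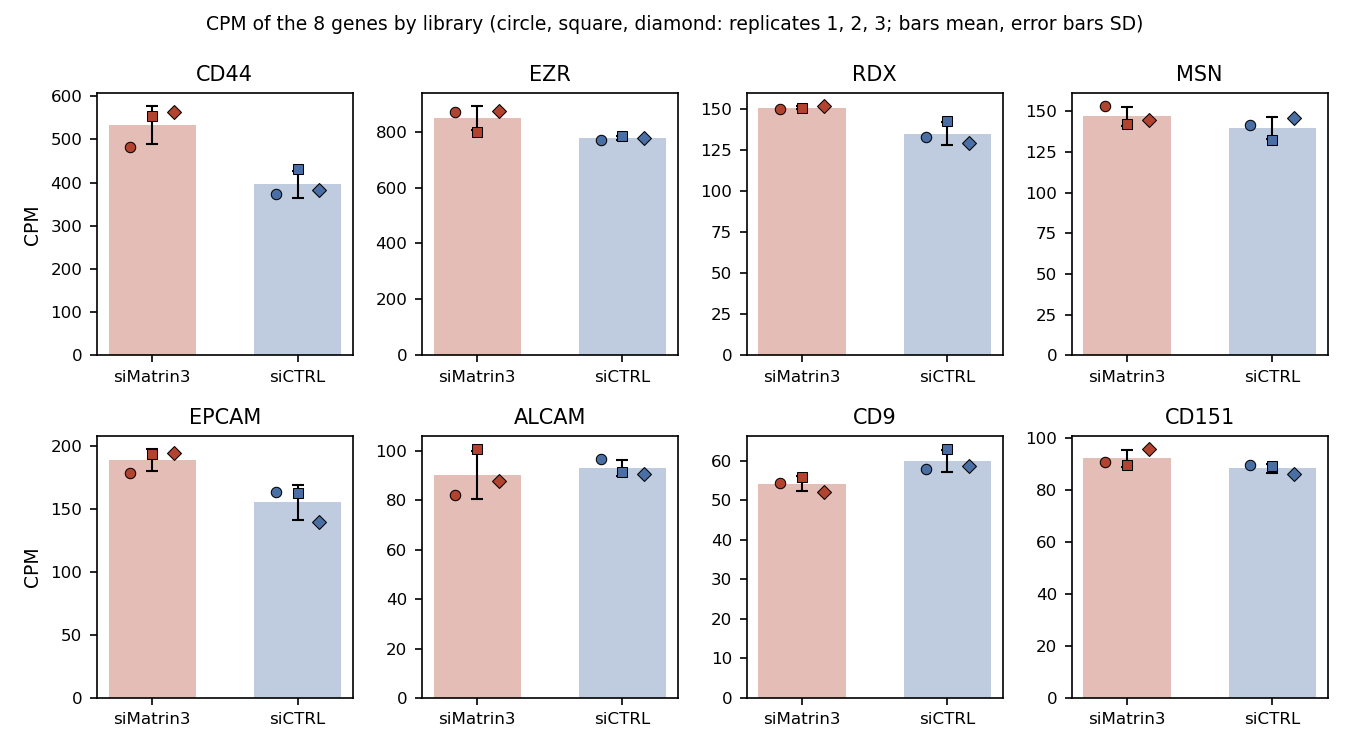
CPM of the 8 genes (y axes start at 0 and differ between genes) in siMatrin3 and siCTRL. Points are single libraries, bars show group means and error bars the SD. CD44, EZR, RDX, EPCAM and CD151 had no overlap and were higher in siMatrin3, CD9 had none and was lower, and the groups overlapped for MSN and ALCAM; only CD44 and EPCAM passed the test, and for CD151 the order of the groups turned round on TPM.

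The 3 ERM genes had small positive differences on counts, and none passed. EZR, the ERM protein of epithelial microvilli, was at 872, 800 and 876 CPM in siMatrin3, against 770, 783 and 777 CPM in siCTRL. The groups did not overlap, but 1 siMatrin3 library stood close to the siCTRL libraries. A log2 fold change of 0.13 ± 0.05 was fitted (SE, 95% interval 0.02 to 0.24, adjusted p = 0.131).

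RDX was at 150, 151 and 152 CPM in siMatrin3, against 133, 143 and 129 CPM in siCTRL. The siMatrin3 libraries were nearly equal and all above the siCTRL libraries, with a log2 fold change of 0.16 ± 0.06 (SE, adjusted p = 0.110). MSN, the ERM protein that prevails in leukocytes and endothelium, was at 153, 142 and 145 CPM in siMatrin3, against 141, 133 and 146 CPM in siCTRL. The groups overlapped, with a log2 fold change of 0.07 ± 0.06 (SE, adjusted p = 0.485). An increase of MSN above 0.20 on the log2 scale lay outside its 95% interval.

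The tetraspanins and ALCAM did not pass either. CD9 was at 54.5, 55.9 and 52.1 CPM in siMatrin3, against 57.8, 63.0 and 58.6 CPM in siCTRL, and was the 1 gene of the 8 with all siMatrin3 libraries below all siCTRL libraries. The fit gave a log2 fold change of -0.15 ± 0.07 (SE, 95% interval -0.31 to 0.00, adjusted p = 0.212). CD151, which binds laminin-binding integrins, was at 90.9, 89.7 and 95.9 CPM in siMatrin3, against 89.6, 89.1 and 86.3 CPM in siCTRL. The lowest siMatrin3 library stood just above the highest siCTRL library, and a log2 fold change of 0.06 ± 0.06 was fitted (SE, adjusted p = 0.594).

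ALCAM, an immunoglobulin-type adhesion protein that binds CD6 and itself, was at 82.2, 101 and 88.0 CPM in siMatrin3, against 96.7, 91.7 and 90.7 CPM in siCTRL. The siMatrin3 libraries stood on both sides of the siCTRL libraries, and a log2 fold change of -0.04 ± 0.08 was fitted (SE, adjusted p = 0.785). Counted by overlap alone, 6 of the 8 genes had groups that did not overlap, 5 with siMatrin3 higher and 1 with siMatrin3 lower. Over all tested genes 29.8% did not overlap, so that separation of the groups was common in these libraries.

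TPM divides each estimate by the effective length of the gene and can be compared between genes. In siMatrin3 the order by mean TPM was EZR, CD44, EPCAM, CD151, RDX, CD9, MSN and ALCAM. In siCTRL it was the same except that CD9 stood above RDX. EZR averaged 279 ± 16.7 TPM in siMatrin3 and 276 ± 4.22 TPM in siCTRL (SD, n = 3 each). CD44 averaged 271 ± 9.56 TPM in siMatrin3 and 229 ± 20.2 TPM in siCTRL (SD, n = 3 each). The libraries of EZR and CD44 overlapped in siMatrin3 but not in siCTRL, where EZR was higher.

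EPCAM followed at 136 ± 2.34 TPM in siMatrin3 and 119 ± 8.50 TPM in siCTRL (SD, n = 3 each), with no overlap with its neighbours in either group. CD151 averaged 68.1 ± 3.77 TPM in siMatrin3 and 71.6 ± 0.48 TPM in siCTRL, and RDX 60.8 ± 10.9 TPM in siMatrin3 and 56.1 ± 9.39 TPM in siCTRL. CD151 and RDX overlapped in siMatrin3, and CD9 and RDX overlapped in siCTRL. CD9 averaged 44.4 ± 1.93 TPM in siMatrin3 and 57.0 ± 1.02 TPM in siCTRL. MSN averaged 35.6 ± 2.01 TPM in siMatrin3 and 36.8 ± 2.39 TPM in siCTRL, and ALCAM was lowest in both groups, at 21.3 ± 1.01 TPM in siMatrin3 and 27.0 ± 3.01 TPM in siCTRL.

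Among the ERM genes, EZR made up 72.4%, 74.8% and 76.0% of their summed TPM in siMatrin3, against 76.6%, 73.3% and 74.7% in siCTRL. The shares overlapped (exact two-sided permutation p = 0.8, n = 3 each). The ratio of CD44 to the summed ERM TPM was 0.65, 0.81 and 0.71 in siMatrin3, against 0.69, 0.62 and 0.55 in siCTRL. These ratios also overlapped (exact two-sided permutation p = 0.2, n = 3 each, where no p under 0.1 can be had).

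On the log2(TPM + 1) scale none of the 8 genes passed, with 1.04% of all genes called by limma. Over all genes 31 were called as higher and 118 as lower on TPM. The median over all genes was -0.09 on this scale, so the differences below are also given relative to that median, and with libraries centred on their median 37 genes were called as higher and 31 as lower. After centring again 0 of the 8 genes passed. Before adjustment 4 of the 8 had a p under 0.05 on TPM.

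CD44 was at 264, 282 and 267 TPM in siMatrin3, against 249, 231 and 208 TPM in siCTRL, with no overlap. Its log2 difference was 0.24 ± 0.07 (SE, adjusted p = 0.145), and 0.33 relative to the median of all genes. EPCAM was at 136, 138 and 133 TPM in siMatrin3, against 125, 123 and 109 TPM in siCTRL. These values did not overlap either, with a log2 difference of 0.19 ± 0.07 (SE, adjusted p = 0.194).

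The largest TPM difference among the 8 genes was that of CD9. It was at 46.2, 44.5 and 42.4 TPM in siMatrin3, against 57.95, 55.9 and 57.2 TPM in siCTRL, a difference of -22.2% between the means. The gap was wider than the range of either group, yet the log2 difference of -0.36 ± 0.07 (SE) did not pass the adjustment over all genes (adjusted p = 0.0605 by limma, unadjusted p = 0.000839). Relative to the median of all genes it was -0.26.

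ALCAM was at 20.3, 22.3 and 21.3 TPM in siMatrin3, against 30.5, 25.4 and 25.2 TPM in siCTRL. All siMatrin3 libraries were lower here, which was not so for its counts. The log2 difference was -0.33 ± 0.11 (SE, adjusted p = 0.170), and -0.23 relative to the median of all genes. CD151 and MSN had log2 differences of -0.07 and -0.04 on TPM, which turned to 0.02 and 0.05 after centring on the library median. By overlap alone 5 of the 8 genes were separated on TPM, 2 with siMatrin3 higher and 3 with siMatrin3 lower, against 23.9% of all genes. Over all genes 5.48% were separated with siMatrin3 higher and 18.4% with siMatrin3 lower, so separation downward was the more common on this scale.

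**Figure D2:**
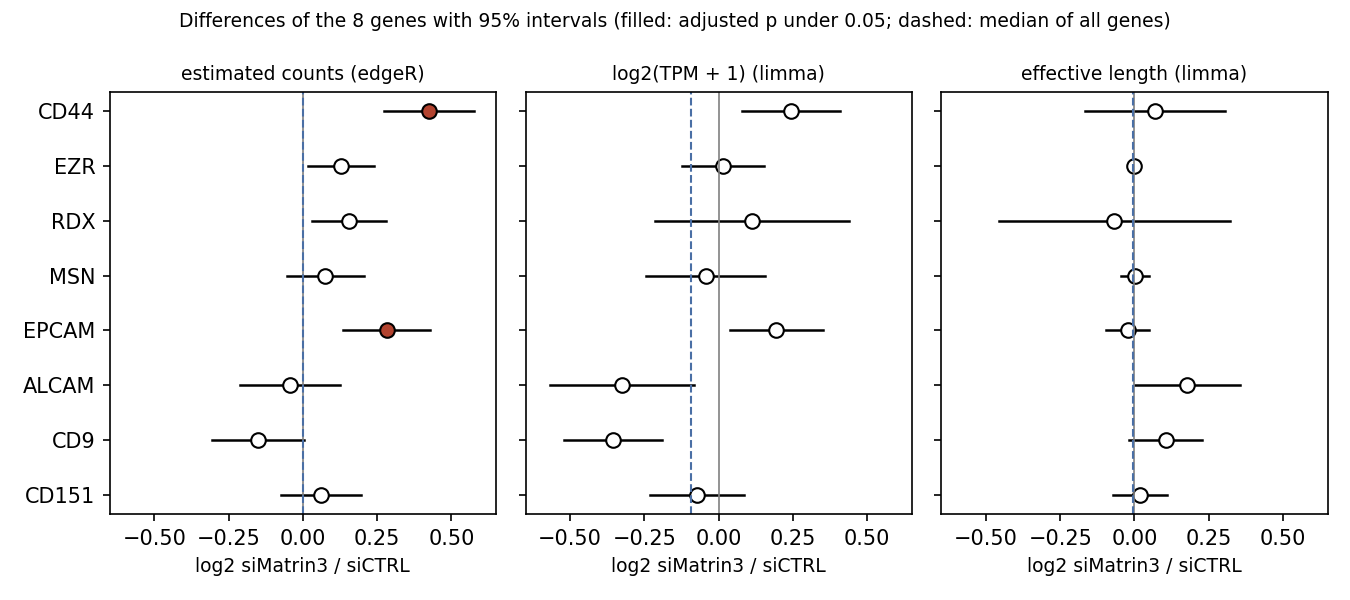
Log2 differences of siMatrin3 over siCTRL (x axes) for the 8 genes on estimated counts, log2(TPM + 1) and effective length, with 95% intervals. Filled points passed an adjusted p under 0.05, the dashed line is the median of all genes, and only CD44 (0.42) and EPCAM (0.28) on counts are filled; ALCAM and CD9 lie lowest on TPM (-0.33 and -0.36) and highest on effective length (0.18 and 0.11), and the TPM positions of MSN and CD151 changed sign when libraries were centred.

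The effective length is an average of isoform lengths in which abundant isoforms weigh more, so it follows the estimated isoform mix. These lengths give a read length of 50 bases, and how well such reads tell isoforms apart was not tested. None of the 8 genes passed on effective length. Over 12269 genes limma called 0%, with 844 at an unadjusted p under 0.05, and with array weights it also called 0. In 1 setting, without siMatrin3 replicate 1, a single gene was called, which was none of the 8.

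CD44 had an effective length of 1770, 1862 and 1968 bases in siMatrin3, against 1546, 1885 and 1926 bases in siCTRL. The groups overlapped, and siCTRL replicate 1, the library with the fewest counts, was the lowest. The log2 ratio was 0.07 ± 0.09 (SE, 95% interval -0.17 to 0.31, adjusted p = 0.950 by limma). Without siCTRL replicate 1 it was -0.03. This value averages over all isoforms and does not measure inclusion of the v2 exon, which the study followed by PCR. The tables list 39 CD44 isoforms, of which 38 had a GENCODE entry, 25 as protein-coding and 9 as retained intron forms, with lengths between 352 and 5431 bases. The SD of the effective length was 98.9 bases among siMatrin3 libraries and 208 bases among siCTRL libraries, or 28.8 bases in siCTRL without replicate 1.

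ALCAM had an effective length of 3921, 4277 and 3847 bases in siMatrin3, against 3259, 3641 and 3757 bases in siCTRL. It was longer in every siMatrin3 library, as was CD9, which was at 1141, 1189 and 1146 bases in siMatrin3, against 1026, 1136 and 1071 bases in siCTRL. The log2 ratio was 0.18 ± 0.07 for ALCAM (SE, adjusted p = 0.723) and 0.11 ± 0.05 for CD9 (SE, adjusted p = 0.778). Over all genes 4.69% had a longer estimate in every siMatrin3 library. On TPM, before centring, ALCAM, CD9 and CD151 were the genes of the 8 that were lower in every siMatrin3 library, and the part of effective length in this was not tested.

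RDX varied most, at 1986, 2660 and 2556 bases in siMatrin3, against 2940, 2206 and 2397 bases in siCTRL. Its spread over the 6 libraries was 13.8% of the mean, against a median of 9.22% over all genes. This spread is wider than that of its CPM, which was 6.80%, and its TPM spread was 16.2%. MSN and EZR hardly moved, with spreads of 0.08% and 0.48%, and EPCAM (2.26%) and CD151 (2.58%) were also nearly flat. Relative to the median of all genes, the log2 difference on TPM was 0.05 for MSN, 0.11 for EZR, 0.29 for EPCAM and 0.02 for CD151, against 0.07, 0.13, 0.28 and 0.06 on counts in the same order.

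**Figure D3:**
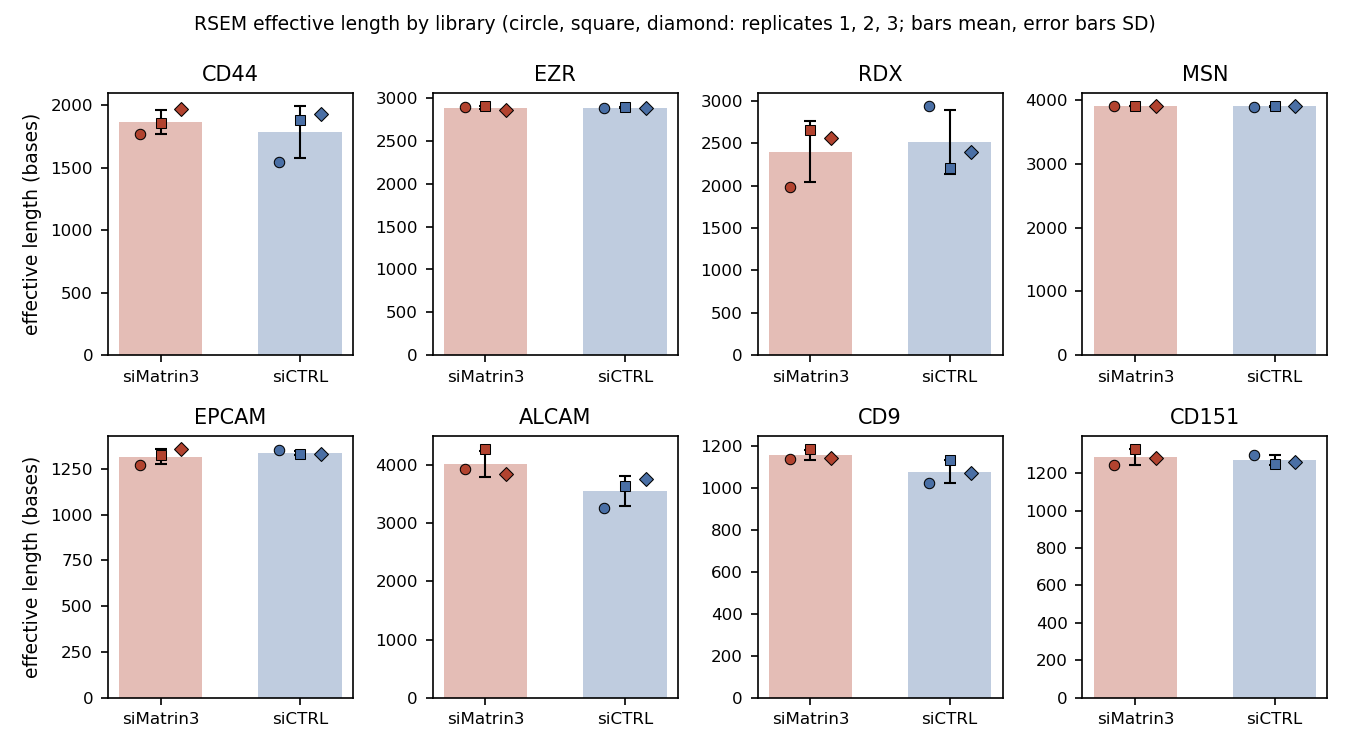
RSEM effective length in bases of the 8 genes (y axes start at 0 and differ between genes) in siMatrin3 and siCTRL. Points are single libraries, bars show group means and error bars the SD; ALCAM and CD9 were longer in all 3 siMatrin3 libraries, the groups of CD44 and RDX overlapped, and MSN and EZR were nearly constant.

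Neighbouring genes could add reads to these rows, because whether reads were counted by strand is not given in the sources used here. CD44-AS1, on the opposite strand of CD44, was at 2.33, 2.61 and 1.40 CPM in siMatrin3, against 2.16, 2.23 and 1.94 CPM in siCTRL. Its groups overlapped, and it held far fewer counts than CD44. EZR-AS1 reached at most 1.29 CPM. POLR2L, on the opposite strand of CD151, was at 67.5 to 79.4 CPM, close to the level of CD151, so that the CD151 values are uncertain if reads of both strands were counted. ZC3H12C overlaps RDX on the opposite strand at 27.8 to 39.1 CPM. MSN and ALCAM overlap no annotated gene, and the pseudogenes of the ERM family, MSNP1, RDXP1, RDXP2 and EZRP1, reached at most 0.53 CPM.

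Of 22 genes of hyaluronan handling and CD44 cleavage, 15 passed the low count filter, 1 rose and none fell, which is 6.67% called against 10.9% of all genes, and the list median was 0.05 on the log2 scale. HAS3, a hyaluronan synthase, rose to 384, 336 and 385 CPM in siMatrin3, against 319, 273 and 277 CPM in siCTRL. Its groups did not overlap, the fit gave a log2 fold change of 0.35 ± 0.07 (SE, adjusted p = 0.00688), and it kept its call in 16 of 16 alternatives. The spans of CHTF8 and DERPC overlap HAS3, at up to 101 CPM. SPP1, which encodes the CD44 ligand osteopontin, averaged 0.74 CPM in siMatrin3 and 1.75 CPM in siCTRL, with a log2 fold change of -1.25 that did not pass (adjusted p = 0.0793). NCSTN, a subunit of the protease that cuts CD44 in the membrane, was at 0.14 and the hyaluronan receptor HMMR at 0.15, and neither passed.

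Of 26 genes that regulate or bind ERM proteins 21 passed the filter, 4 rose, 2 fell and 15 did not pass the test. This is 28.6% called against 10.9% of all genes, and the median over the list was 0.03 on the log2 scale. The list was chosen with earlier results of these data known, so this share is a description and not a test. RHOA, the GTPase upstream of the kinases that phosphorylate ERM proteins, rose to 396, 395 and 393 CPM in siMatrin3, against 303, 300 and 296 CPM in siCTRL. Replicates were nearly equal within each group, and a log2 fold change of 0.40 ± 0.05 was fitted (SE, adjusted p = 0.000203). NHERF1, a PDZ scaffold that binds the FERM domain, rose to 103, 92.1 and 97.0 CPM in siMatrin3, against 72.7, 70.4 and 66.0 CPM in siCTRL. The fit gave a log2 fold change of 0.48 ± 0.07 (SE, adjusted p = 0.000876), without overlap between the groups.

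The related scaffold NHERF2 rose (0.44, adjusted p = 0.0219), as did PODXL (0.32, adjusted p = 0.0199), a sialomucin joined to ezrin through NHERF proteins. SLK, a kinase that phosphorylates the ERM tail, fell to 101, 110 and 96.2 CPM in siMatrin3, against 129, 126 and 129 CPM in siCTRL. The fit gave a log2 fold change of -0.32 ± 0.06 (SE, adjusted p = 0.00606). LIMA1, an actin-bundling protein, also fell (-0.37, adjusted p = 0.0199). With the replicate number as a block, 4 genes rose and 4 fell. The added falls, named after their values were seen, were NF2, the ERM relative merlin (-0.18, adjusted p = 0.0399), and ROCK2, an effector kinase of RHOA (-0.20, adjusted p = 0.0352). With effective lengths as an offset RHOA alone of the 6 kept its call. NHERF2 was also lost with DESeq2 in place of edgeR. With 1 library left out, NHERF2 was lost without siMatrin3 replicates 1 or 3 or siCTRL replicates 1 or 3 (log2 fold change at least 0.37, adjusted p up to 0.0963), PODXL without siMatrin3 replicates 2 or 3 or siCTRL replicates 1 or 3 (at least 0.28, up to 0.0854), and LIMA1 without siMatrin3 replicates 2 or 3 or siCTRL replicate 1 (-0.47 to -0.27, up to 0.0852).

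Of 24 tetraspanins and their partners 22 passed the filter, none rose and 2 fell, which is 9.09% called against 10.9% of all genes, and the list median was -0.10 on the log2 scale. IGSF3, an immunoglobulin superfamily relative of the tetraspanin partners PTGFRN and IGSF8, fell to 20.9, 25.9 and 23.2 CPM in siMatrin3, against 34.3, 42.8 and 47.2 CPM in siCTRL. The groups stood well apart, with a log2 fold change of -0.85 ± 0.12 (SE, adjusted p = 0.000815), and the call held in 16 of 16 alternatives. TSPAN12, a receptor subunit in Norrin signalling, was at 2.88, 4.0 and 5.15 CPM in siMatrin3, against 7.98, 7.17 and 8.45 CPM in siCTRL, and fell, at a log2 fold change of -0.97 (adjusted p = 0.0257). With 1 library left out, its call held only without siMatrin3 replicate 3 (adjusted p up to 0.105 otherwise, log2 fold change -1.20 to -0.77), and it was lost with effective lengths as an offset (-1.01, adjusted p = 0.127). DESeq2 gave TSPAN12 no adjusted p. TSPAN5, which acts on the sheddase ADAM10, was at -0.20 and did not pass (adjusted p = 0.122), but passed with the replicate block (-0.21, adjusted p = 0.0423). TSPAN3 was at 0.17 (adjusted p = 0.171).

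Of 31 other surface glycoproteins of colorectal cells, 23 passed the filter, 1 rose and none fell, which is 4.35% called against 10.9% of all genes, and the list median was -0.02 on the log2 scale. TFRC, the transferrin receptor, averaged 529 CPM in siMatrin3 and 462 CPM in siCTRL, with a log2 fold change of 0.19 ± 0.06 (SE, adjusted p = 0.0423). With 1 library left out, the call of TFRC held only without siCTRL replicate 1 (adjusted p up to 0.174 otherwise, log2 fold change 0.16 to 0.25). It was also lost with upper quartile scaling (0.19, adjusted p = 0.0524) and with effective lengths as an offset (0.19, adjusted p = 0.290), and none of the list then passed. BSG (basigin) was at 0.17 (adjusted p = 0.0625) and MET, the HGF receptor for which CD44 can act as a co-receptor, at 0.17 (adjusted p = 0.0710). Neither passed, but both passed with the replicate block (BSG 0.18, adjusted p = 0.0234, and MET 0.17, adjusted p = 0.0370), which made 3 rises. MCAM, an adhesion protein of the immunoglobulin family, was at 0.30 (adjusted p = 0.147).

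All 22 RNA-binding proteins known to act on CD44 or like exons passed the filter, 3 rose, 3 fell and 16 did not pass the test. This is 27.3% called against 10.9% of all genes, and the list median was 0.01 on the log2 scale. This list too was chosen with earlier results of these data known, so its share is no test of it. With the replicate block 4 rose and 3 fell. The added rise, named after its values were seen, was MBNL1, a splicing regulator (0.21, adjusted p = 0.0121, against 0.112 without the block). ZMAT3, a p53-induced RNA-binding protein that represses CD44 variant exons, had the lowest p of these and fell to 37.2 mean CPM in siMatrin3, against 57.3 in siCTRL (log2 fold change -0.62 ± 0.08, SE, adjusted p = 0.000380). CELF1, a splicing and mRNA decay factor, fell (-0.34, adjusted p = 0.00119), as did RBFOX2, a regulator of epithelial and mesenchymal exons (-0.21, adjusted p = 0.0343).

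ESRP2, an epithelial splicing regulator of which the relative ESRP1 keeps CD44 variant exons in, rose to 54.9, 61.1 and 58.6 CPM in siMatrin3, against 47.5, 48.2 and 44.9 CPM in siCTRL (log2 fold change 0.31 ± 0.07, SE, adjusted p = 0.0190). SND1 (0.22, adjusted p = 0.0297) and U2AF2, which binds the pyrimidine tract of 3' splice sites (0.22, adjusted p = 0.0302), also rose. None of the 6 passed with effective lengths as an offset. ESRP2 and RBFOX2 were also lost with DESeq2 in place of edgeR, and RBFOX2 with no count filter (-0.19, adjusted p = 0.0932 by edgeR). With 1 library left out, ZMAT3 and CELF1 passed each time, whereas ESRP2 was lost without siMatrin3 replicates 2 or 3 or siCTRL replicate 3 (adjusted p up to 0.0891), SND1 and U2AF2 passed only without siCTRL replicate 2 (up to 0.133 and 0.141 otherwise) and RBFOX2 only without siMatrin3 replicate 2 (up to 0.136 otherwise). The spans of NFATC3 (with ESRP2, up to 93.1 CPM) and of NDUFS3 and PTPMT1 (with CELF1, up to 48.2 CPM) overlap these genes.

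**Figure D4:**
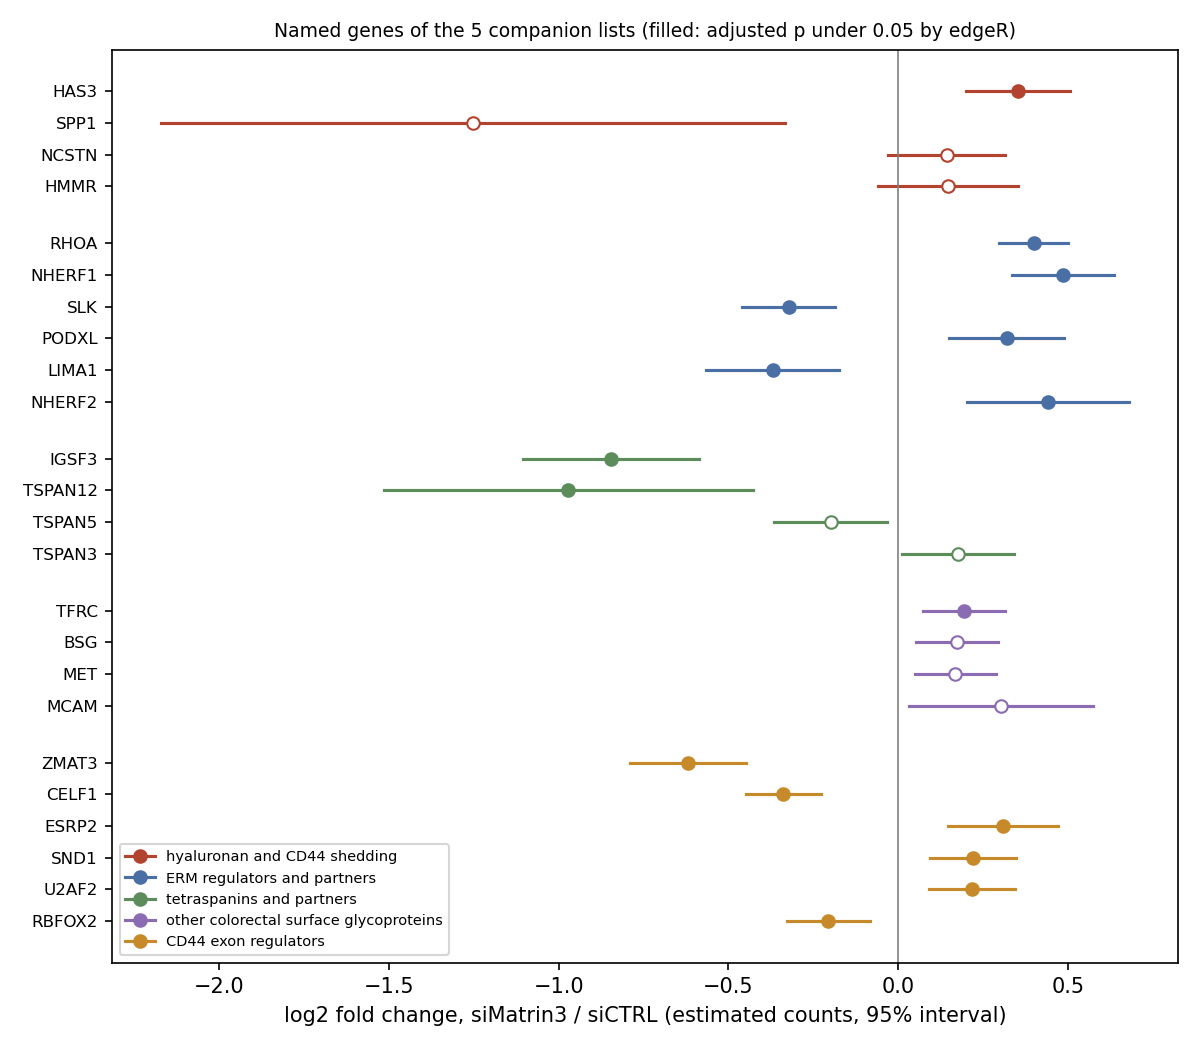
Log2 fold change of siMatrin3 over siCTRL on estimated counts (x axis) with 95% intervals for named genes of the 5 companion lists, coloured by list; filled points passed an adjusted p under 0.05 by edgeR. RHOA, NHERF1, NHERF2, PODXL and HAS3 lie between 0.32 and 0.48, and IGSF3 and TSPAN12 at -0.85 and -0.97; the intervals of SPP1 and TSPAN12 are the widest.

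The profile most like that of CD44 over the 6 libraries was sought among 11455 genes that averaged 5 CPM or more, as the root mean square difference of log2 CPM deviations from the mean of each gene. The 5 nearest were PLPPR2 (0.03), DBN1 (0.04), UNC93B1 (0.05), GPRC5B (0.05) and TGFBR1 (0.05). Among the other 7 genes studied here EPCAM was nearest to CD44 (0.11) and CD9 farthest (0.30).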

How the data were processed

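The 6 HCT116 libraries were taken as total RNA, as the methods describe them, although the labels name an mRNA kit. Their 48 h time, TopHat in the labels and a 50-base read length from the effective lengths match the methods for total RNA. The labels name cutadapt, TopHat and RSEM as the tools of the authors, with hg19 as the build. The deposited expected counts are RSEM's estimated counts per gene, with no scaling between libraries, and were rounded here. The deposited TPM values were scaled by the authors within each library. The deposited effective lengths, in bases, are means over isoforms weighted by abundance. The deposited FPKM and length columns were not analysed. The annotation release is not given in the sources used here, and 58472 of 58884 IDs (99.3%) had an entry in GENCODE 44 (hg38), from which symbols, positions and overlaps were taken by ID. Sequences came from the hg38 genome and, for primers, from the study's primer list.

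Counts were filtered with filterByExpr (minimum count 10, minimum total 15), scaled by TMM and compared in edgeR 4.0.16 (R 4.3.3) by the two-sided quasi-likelihood F test, with Benjamini-Hochberg adjustment over all genes at 0.05. TPM (log2 of TPM plus 1) and log2 effective length were tested with limma 3.58.1. DESeq2 1.42.0 was an alternative, beside other scalings, filters, pseudocounts, effective lengths as an offset, a replicate block, array weights and each library left out. Scripts were tested on simulated data, in which effective lengths varied less than in these libraries. That trial does not show how small a length difference could be found here. Single values had exact permutation tests. Replicate counts varied by 6.44% beyond sampling (biological coefficient of variation), and each pair of replicates differed by more than sampling noise. A p-value here refers to the spread between cultures of 1 line.

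Replicate numbers may pair the libraries, but the sample titles give replicate numbers only. Deviations from the group means correlated at 0.10 to 0.16 in each same-numbered pair, against at most -0.02 in others. Deviations within a group cancel out, so positive values in same-numbered pairs partly force negative ones in others. These weak correlations do not settle a pairing. The main fit has no block, and the block is given as an alternative where it changed a call or moved a count by over 1.5 times.

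The 8 genes and the companion lists were chosen with earlier results of these data known, so the shares called among them are descriptions and not tests. The genes named were MATR3, the 8 genes, CD44-AS1, the 4 with the lowest p in each list, any that complete a count of 5 or fewer, and the 5 most like CD44. NF2, ROCK2 and MBNL1, the epithelial and other marker genes and the overlapping genes and pseudogenes were named outside this rule.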

Additional observations from a re-analysis of the deposited data

How the results depend on the processing

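On estimated counts 1557 genes passed, 2 of them among the 8 genes. With effective lengths as an offset 204 genes and 0 of the 8 passed, and with siCTRL replicate 1 also left out, an alternative chosen after seeing the data, 100 and 0 (CD44 at 0.40, adjusted p = 0.0740). At an adjusted p of 0.01, 589 genes and 1 of the 8, CD44, passed. Leaving out 1 library gave 707 to 1256 genes and 1 to 2 of the 8, with fewer libraries to fit. DESeq2 called 1045 genes and the replicate block 2259, each with 2 of the 8. The block changed no call among the 8 genes on counts, TPM or effective length. CD44 passed in 14 of 16 alternatives and EPCAM in 10 of 16. On TPM and on effective length 0 of the 8 passed in every alternative run.

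Some small values changed sign, and of these only RBFOX2 was called in the design used. RBFOX2 was at 0.00024 with the offset, and the cause was not tested. NCSTN was at -0.098 with the offset and at -0.067 with siCTRL replicate 1 also left out, and CD44-AS1 at 0.012 with no count filter. After centring of TPM, added after seeing the data, MSN was at 0.048 and CD151 at 0.019. With 1 library left out, the log2 fold change on counts lay between -0.13 and 0.022 for ALCAM and between -0.17 and 0.22 for CD44-AS1. On TPM EZR then lay between -0.019 and 0.064, and RDX between -0.030 and 0.23. On effective length the ranges were -0.031 to 0.13 for CD44, -0.0048 to 0.0047 for EZR, -0.16 to 0.064 for RDX, -0.044 to 0.0023 for EPCAM and -0.0053 to 0.042 for CD151. MSN had no effective length value without siCTRL replicate 1, because it was then equal in all libraries. With 3 libraries in each group, the 95% intervals on counts of the 6 genes that did not pass ran from -0.31 (CD9) to 0.28 (RDX).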
